A study of Mus musculus with 2 samples.

Results

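The densely accessible windows of this data set are 332 tiles of 100 kb on mouse chromosomes 1 to 19 (build mm10), each holding 15 or more ATAC-seq intervals. The chromosomes were laid out in fixed tiles from their first base, every unique peak interval was given to the tile that holds its midpoint, and tiles with 15 or more were kept; the members were thus chosen by their interval count. They were 332 of 24616 tiles (1.35%) and held 5690 of 101258 intervals on these chromosomes (5.62%). The count of intervals chose the tiles, so counts, reads, folds and significance values inside them are given as a description, without a test.

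The data came from 1 group, cells carrying GFP that FACS isolated at embryonic day 10.5 from Hb9::GFP embryos (strain C57/Bl6), called motor neurons of the spinal cord in the labels. Hb9 is an older name of Mnx1, and the GFP reports the activity of its promoter, so the sort selects cells by that promoter and not by position. ATAC-seq uses the Tn5 transposase, which inserts sequencing adapters where DNA is not covered by nucleosomes. The 2 replicates are represented by 1 pooled peak list, so no value below has a replicate error, and whether the replicates came from separate litters is not given.

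Accessible sites are not spread evenly along a genome. Promoters with many CpG dinucleotides are open in most cells, whereas enhancers open in the cells that use them, often in large numbers around the genes of developmental transcription factors. The Hox clusters, which give neurons of the neural tube their position along the body axis, pack many genes and regulatory elements into a short stretch. Tandem gene families such as histone, tRNA, 5S ribosomal RNA and zinc finger genes place many similar sequences next to each other, and short reads are hard to assign among such copies.

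Dense tiles held a median of 16 intervals and at most 41, against a median of 3 over all tiles. At the threshold, 113 tiles held exactly 15 intervals and 140 tiles held 14. Intervals of the tiles with 15 had a median fold of 2.90 and a median of 26 reads, and those of the tiles with 14 had a median fold of 2.98 and a median of 26 reads. The fold is the caller's ratio of reads at the summit to its local background, and the reads are overlapping fragments or reads at the summit, recovered from the deposited values. Most dense tiles lay close to the threshold, since 244 held 15 to 17 intervals and 41 held 20 or more. At the other end, 3009 tiles held no interval. Chromosome 11 had the highest share of dense tiles (34 of 1220, 2.79%), chromosomes 8 (2.63%) and 4 (2.49%) followed, and chromosome 12 had the lowest (7 of 1201, 0.583%).

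**Figure D1:**
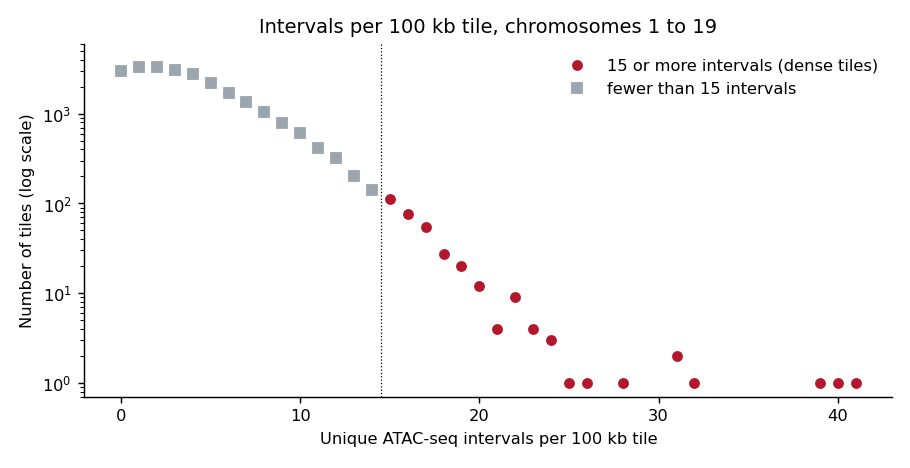
Number of 100 kb tiles (y axis, log scale) by the unique ATAC-seq intervals they hold (x axis), for the tiles with 15 or more intervals (red circles) and those with fewer (grey squares), from 1 pooled list. The 332 dense tiles form the tail of the distribution, 113 of them at 15 intervals, and 3 single tiles at 39, 40 and 41 stand away from the rest.

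The genes that start in dense tiles show what kinds of promoter lie there, and 6 promoters chosen after their values were seen are printed to show the range. Each is 300 bases from RefSeq (GRCm38.p6), 250 before to 50 after a gene start, written 5′ to 3′ on the gene's strand, with CpG dinucleotides in capitals. Hoxa5 (chr6:52204538-52204837, minus strand) and Nkx6-2 (chr7:139582748-139583047, minus strand), a homeobox gene of ventral neural progenitors, are CpG-rich. Neurod4 (chr10:130280205-130280504, minus strand), a neurogenic bHLH gene, is CpG-poor and still carried an interval. Zfp982 (chr4:147442864-147443163, plus strand) and Zfp988 (chr4:147305354-147305653, plus strand) belong to 1 cluster of zinc finger genes, and only Zfp982 carried an interval on this window. H1f3 (chr13:23554782-23555081, plus strand) encodes a linker histone.
Hoxa5: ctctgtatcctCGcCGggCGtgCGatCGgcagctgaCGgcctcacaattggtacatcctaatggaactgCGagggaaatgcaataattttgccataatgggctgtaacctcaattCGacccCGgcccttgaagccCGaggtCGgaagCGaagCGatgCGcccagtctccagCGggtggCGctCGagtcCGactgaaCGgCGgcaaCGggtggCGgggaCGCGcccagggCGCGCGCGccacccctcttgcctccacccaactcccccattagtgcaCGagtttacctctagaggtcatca
Nkx6-2: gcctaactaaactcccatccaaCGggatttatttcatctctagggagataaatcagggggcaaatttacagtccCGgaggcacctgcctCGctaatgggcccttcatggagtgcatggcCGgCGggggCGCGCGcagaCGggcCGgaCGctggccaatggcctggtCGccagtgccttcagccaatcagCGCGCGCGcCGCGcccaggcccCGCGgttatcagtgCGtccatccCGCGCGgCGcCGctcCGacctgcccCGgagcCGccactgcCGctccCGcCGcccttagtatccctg
Neurod4: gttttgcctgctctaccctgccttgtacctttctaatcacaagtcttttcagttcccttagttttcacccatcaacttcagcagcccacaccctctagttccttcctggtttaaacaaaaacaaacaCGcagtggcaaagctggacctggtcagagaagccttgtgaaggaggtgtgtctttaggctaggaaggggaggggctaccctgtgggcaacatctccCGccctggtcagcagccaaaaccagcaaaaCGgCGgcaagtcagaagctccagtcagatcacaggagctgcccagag
Zfp982: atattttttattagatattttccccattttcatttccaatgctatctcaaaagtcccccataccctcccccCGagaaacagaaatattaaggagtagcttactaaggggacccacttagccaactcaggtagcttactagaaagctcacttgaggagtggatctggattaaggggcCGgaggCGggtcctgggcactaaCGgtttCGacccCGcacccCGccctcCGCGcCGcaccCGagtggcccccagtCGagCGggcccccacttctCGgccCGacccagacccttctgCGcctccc
Zfp988: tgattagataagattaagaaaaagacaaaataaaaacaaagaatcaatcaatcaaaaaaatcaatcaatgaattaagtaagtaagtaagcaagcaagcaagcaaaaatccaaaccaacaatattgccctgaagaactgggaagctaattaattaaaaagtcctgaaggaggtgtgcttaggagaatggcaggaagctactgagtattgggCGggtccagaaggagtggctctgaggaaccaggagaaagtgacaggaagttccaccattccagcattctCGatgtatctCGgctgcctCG
H1f3: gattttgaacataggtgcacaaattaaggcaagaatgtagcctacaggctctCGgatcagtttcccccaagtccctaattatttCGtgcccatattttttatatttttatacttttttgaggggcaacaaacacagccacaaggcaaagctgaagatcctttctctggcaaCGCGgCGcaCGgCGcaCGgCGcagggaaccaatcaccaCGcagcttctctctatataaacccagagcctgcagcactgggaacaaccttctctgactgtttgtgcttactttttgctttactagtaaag

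The number of CpG dinucleotides in these windows was 29 for Hoxa5, 32 for Nkx6-2, 4 for Neurod4, 16 for Zfp982, 4 for Zfp988 and 10 for H1f3. The ratio of observed to expected CpG was 1.02 for Hoxa5 and 0.972 for Nkx6-2, against 0.197 for Neurod4. The interval on the Hoxa5 window had 65 reads, the one on Nkx6-2 had 90, the one on Neurod4 had 73, the one on Zfp982 had 151 and the one on H1f3 had 116. The reads on the CpG-poor Neurod4 window lay between those on the CpG-rich Hoxa5 and Nkx6-2 windows. Its ratio of reads to local background was lower than theirs, at 3.17 over a background of 22.4 reads. That ratio was 3.45 for Hoxa5 and 6.08 for Nkx6-2.

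Across all genes with a RefSeq promoter, CpG content was higher in dense tiles. The median ratio of observed to expected CpG was 0.675 for 562 promoters in dense tiles (95% interval of the median 0.641 to 0.703) and 0.593 for 15894 promoters elsewhere (0.582 to 0.603). GC content had a median of 59.7% in dense tiles and 56.7% elsewhere. An interval overlapped the promoter in 76.2% of dense-tile genes and in 63.1% of the others, and since intervals chose the tiles this excess is in part built in. Among promoters that carried an interval the order was the other way round, with a median ratio of 0.751 for 428 promoters in dense tiles and 0.779 for 10034 elsewhere. Among promoters without one it was 0.262 for 134 in dense tiles and 0.171 for 5860 elsewhere. Chromosome 18 has no entry in the promoter and miRNA tables used here.

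Of 5 short motifs searched on both strands, the GC box GGGCGG differed most in percentage points. It stood in 59.1% of dense-tile promoters and 46.9% of the others, but in 67.8% and 68.7% of those that carried an interval. The TATA box motif TATAAA stood in 9.43% of dense-tile promoters and 13.7% of the others, but in 7.01% and 6.35% of those that carried an interval. TAATTA, a homeodomain core, stood in 3.20% of dense-tile promoters and 4.66% of the others, and in 1.87% and 2.09% of those that carried an interval. CCAAT stood in 225 of 562 dense-tile promoters and 6212 of 15894 others, and CAGCTG, an E-box of bHLH factors, in 14.4% of dense-tile promoters and 15.2% of the others. Every motif is counted once per promoter, and a match is only the presence of these letters.

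**Figure D2:**
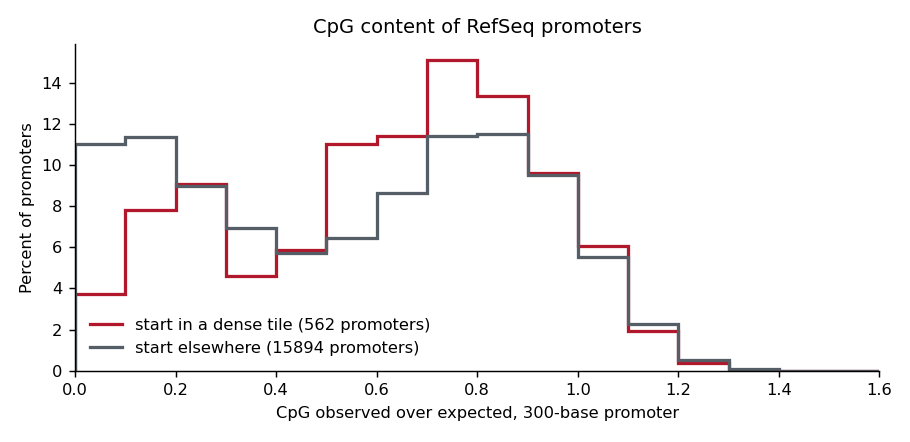
Percent of RefSeq promoters (y axis) by the ratio of observed to expected CpG in 300 bases (x axis), for genes that start in dense tiles (red, 562) and elsewhere (grey, 15894). The dense-tile curve is lower at the CpG-poor end and higher between 0.5 and 0.9, with medians of 0.675 and 0.593.

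Dense tiles were crowded with sites of ordinary size and low contrast. Their intervals had a median width of 381 bp, against 379 bp in the other tiles. They held more reads, with a median of 29 against 22, but also a higher local background, with a median of 8.59 against 5.37 reads, and so a lower fold of 2.83 against 3.30. The caller takes its background from the reads around each summit, and the part that crowding itself has in the higher background was not tested. An interval's reads also cannot tell apart a site open in few cells and one weakly open in many. A q-value under 0.05 was reached by 79.2% of intervals in dense tiles (exact 95% binomial interval 78.1 to 80.3) and by 80.4% of those in other tiles, with 80.4% over all intervals. A fold of 5 or more was found for 18.3% in dense tiles and 28.8% elsewhere, and a width of 1000 bp or more for 8.12% and 11.1%. These differences were graded and not traits of dense tiles alone. Intervals of the tiles with 14 had 20.7% at that fold, 8.01% at that width and a median background of 7.33 reads. For tiles with 10 to 14 intervals the values were 24.7%, 10.1% and 6.62 reads. The tiles were far from filled, since intervals covered a median of 7.81% of a dense tile, with a range of 3.79% to 30.5%.

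Dense tiles were not mainly collections of promoters. Of their intervals, 13.4% had the summit within 1 kb of the end of a protein-coding gene (12.5 to 14.3), against 14.1% in other tiles. Inside genes lay 52.1% in dense tiles and 40.8% elsewhere, and between genes 34.5% and 45.1%. This was graded and not a trait of dense tiles alone, since tiles with 10 to 14 intervals had 50.6% inside genes and 33.9% between them. No interval at a gene end was present in 101 dense tiles (30.4%), and 178 (53.6%) held 15 or more intervals away from gene ends. In 12 tiles most intervals were at gene ends. The gene-end intervals themselves were weaker in dense tiles, with a median fold of 4.32 and 63 reads, against 7.62 and 85 reads elsewhere, at a background of 13.5 against 10.03 reads and a width of 688 against 954 bp.

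Of 20661 protein-coding genes, 712 started in a dense tile (3.45%), of which 150 had no given strand and were placed by their midpoint. Every count of starts below follows the same rule, so such a gene may truly start in another tile. The 712 genes were short, with a median length of 9444 bp against 17927 bp for genes that start elsewhere, and 5.20% against 11.4% were longer than 100 kb. An interval lay within 1 kb of the start in 70.8% of them and in 51.5% of the others, with 52.2% over all genes. Such intervals count toward the rule, so the higher share in dense tiles is in part built in. Tiles in which 5 or more genes start were dense in 7.66% of cases (55 of 718), against 0.629% of the tiles in which none does (90 of 14318). Those 90 tiles still made up 27.1% of the dense tiles. In between, the share did not rise steadily: it was 2% with 1 start, 1.58% with 2 and 2.33% with 3 to 4.

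The dense tiles were sorted by the genes they hold into 5 classes, drawn up after the values were seen. A transcription factor of the lists used here started in 53 tiles, a numbered zinc finger (Zfp) gene in 13 and another coding gene in 176, while 67 held only part of a gene body and 23 no coding gene at all. The transcription factor tiles had the higher values, with a median of 35 reads, a background of 10.6 reads and 84.0% of intervals at a q-value under 0.05. The Zfp tiles had the lower ones, with a median of 19 reads, a fold of 2.23 and 62.4%. Gene-body tiles had a median of 24 reads and 78.2%, and tiles without a coding gene had 25 reads and 79.6%.

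**Figure D3:**
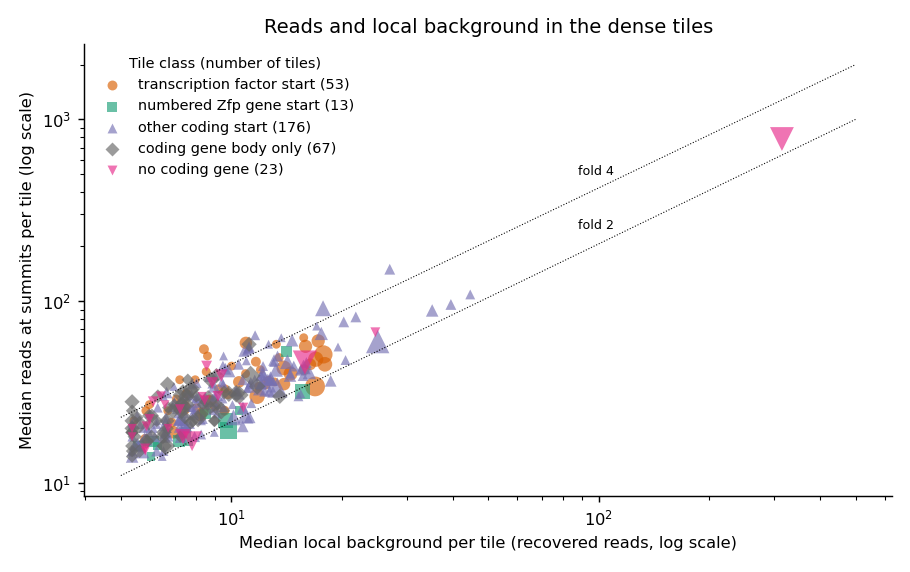
Median reads at the summits of a dense tile (y axis, log scale) against the median local background (x axis, log scale), 1 point per tile, sized by its number of intervals and coloured by class. Dotted lines mark a fold of 2 and of 4. Most of the 332 tiles lie between the lines below a background of 30 reads. The point at 315 background reads is the first tile of chromosome 9 that holds intervals.

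Developmental transcription factors lay in dense tiles at a higher share than all genes did. Of 393 genes in 22 lists of transcription factors, 91 started in a dense tile (23.2%, exact 95% interval 19.1 to 27.6), and without the Hox genes 53 of 354 (14.97%, 11.4 to 19.1). The share over all genes was 3.45%, as given above, and most of the 712 genes in dense tiles belonged to none of these lists. The lists overlap, and neighbours in 1 tile are not independent: the 53 genes lay in 46 tiles.

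The 4 Hox clusters gave 38 of 39 genes (97.4%, beside 3.45% of all genes), in 8 tiles. The Hoxb1 to Hoxb5 tile held 31 intervals and the neighbouring Hoxb6 to Hoxb9 tile 19. For Hoxa, the tile in which Hoxa2 and Hoxa4 start held 28 intervals and the next one, from Hoxa3 to Hoxa13, held 22. The Hoxc tiles held 23 (Hoxc8 to Hoxc13) and 18 (Hoxc4 to Hoxc6), and the Hoxd tiles 20 (Hoxd1, Hoxd3, Hoxd4 and Hoxd8) and 16 (Hoxd9 to Hoxd13 with Evx2). Only Hoxb13, the most 5′ gene of the Hoxb cluster, started in a tile below the threshold, with 13 intervals. An interval lay within 1 kb of the start, or of the midpoint where no strand was given, in 26 of the 39 genes.

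Levels at the Hox gene ends differed widely although all these tiles were dense. By reads, the strongest gene-end intervals were highest at Hoxd1 (136 reads, a fold of 9.07), Hoxa4 (117 reads, 5.58) and Hoxc5 (106 reads, 4.49). By fold, Hoxd1 was followed by Hoxc13 (7.77, 78 reads), Hoxd13 (5.94, 53 reads) and Hoxa13 (5.61, 50 reads), ahead of Hoxa4. Hoxb6 had 28 reads and a fold of 1.62, and Hoxa11 had 26 reads and 2.005. No interval lay within 1 kb of either end of Hoxa9, Hoxd10 or Hoxd11. Within the Hoxa2 and Hoxa4 tile the reads ranged from 18 to 117, with 26 of 28 intervals at a q-value under 0.05, and the local background reached 29.0 reads. In the Hoxb1 to Hoxb5 tile the reads ranged from 13 to 83, and 9 of 31 intervals lay at gene ends. The tile's strongest interval by reads, with 83, lay inside the annotated span of Hoxb3.

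Among 15 motor neuron transcription factors, 5 started in dense tiles, all at the threshold of 15 intervals: Ebf1 and Ebf2 (helix-loop-helix factors of newly made neurons), Lhx4 (a LIM homeobox gene of motor neurons), Nkx6-2 and Onecut3. The tile of Onecut1 held 13, those of Onecut2 and Zeb2 11 each, Lhx3 10, Ebf3 and Isl2 9 each, Mnx1 8, Nkx6-1 6, Myt1l 5 and Isl1 3. A tile with few intervals could still hold a strong site, and the relation of count to strength was not tested. The strongest interval at an end of Isl1, a LIM homeobox gene that defines motor neurons, had 244 reads and a fold of 10.9, although its tile held 3 intervals. The Mnx1 tile had 406 reads at the gene's strongest end and a median background of 47.2 reads. The Hb9::GFP transgene carries Mnx1 regulatory sequence, and reads from it and from the endogenous locus cannot be told apart in these values. Zeb2, a zinc finger factor, starts below the threshold, but the neighbouring tile, which lies wholly inside its body, was dense, with 22 intervals against 11.

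An interval lay within 1 kb of the start of 12 of 15 motor neuron transcription factors and of 6 of 8 cholinergic genes. Over all genes the share was 52.2%. In every such count the midpoint stood in for the start where no strand was given. An interval at the true start can then be missed. Markers of other cell types were split. An interval lay at the start of 0 of 13 blood and microglia genes, 5 of 14 endothelial, 5 of 15 liver and endoderm and 4 of 10 mature glial genes, but of 14 of 20 mesoderm and muscle genes and 12 of 17 forebrain and midbrain regulators. Within the neural lists it did so for 15 of 17 neural progenitor genes, 12 of 14 dorsal and 8 of 14 ventral interneuron regulators and 10 of 20 pan-neuronal genes, so these shares do not single out motor neuron genes. None of the 8 cholinergic genes started in a dense tile, nor did any of the 20 pan-neuronal, 17 forebrain and midbrain, 14 endothelial, 10 mature glial and 14 Notch pathway genes. Beside the 3.45% of all genes that start in a dense tile, a count of 0 in lists this short is no result about them. The upper limit of the exact 95% interval for these counts of 0 ranged from 16.8% for the pan-neuronal genes to 36.9% for the cholinergic ones. The tile in which Chat and Slc18a3, the cholinergic locus, start held 13 intervals, and that of Prph, a neuronal filament gene, held 14.

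Of 17 neural progenitor genes, 5 started in dense tiles. Pax6, a paired homeobox gene of neural progenitors, had 22 intervals in its tile, Nes 20, Sox2 17, and Hes5, a Notch target, and Zic1 had 15 each. In the Pax6 tile the strongest interval lay between genes, 56596 bp from the nearest gene end, with 258 reads and a fold of 10.6, while the one at the gene's end had 59 reads and a fold of 3.92. In the Sox2 tile the strongest was at the gene itself, with 97 reads and a fold of 4.56, and 16 of 17 intervals lay between genes.

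The counts of other families are to be read beside the 3.45% of all genes that start in a dense tile. The Zic genes had 4 of 4 in 2 tiles (20 intervals at Zic2 and Zic5, 15 at Zic1 and Zic4). The TALE cofactors of Hox proteins had 3 of 9, among them Meis2 (18) and Pknox2 (15, placed by its midpoint). The Pax genes had 3 of 9 (Pax6, Pax9 16, Pax3 15) and the Iroquois genes 2 of 6 (Irx3 and Irx5, 15 each). The Nkx genes had 3 of 14, the LIM homeobox genes 2 of 12 and the neural bHLH genes 6 of 42, with Neurod4 and Hes2 at 16. The nuclear receptors had 6 of 44, led by Nr2f2, an orphan receptor, at 21. The developmental zinc finger genes had 5 of 56, led by Tshz1 at 25, a teashirt gene, and Zfp608 at 23. Sox genes had 1 of 18 and Fox genes 3 of 41. Among 12 motor column and subtype genes, Tshz1 and Foxp4 (15) started in dense tiles. The ventral interneuron regulators had 2 of 14 (Uncx 18 and Evx2 16) and the dorsal ones 2 of 14 (Dbx1 16 and Lhx2 15).

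Axon guidance families differed in their shares, to be read beside the 3.45% of all genes. Of 21 Eph and ephrin genes, 5 started in dense tiles (23.8%, 8.22 to 47.2), all of them ephrin-A genes, in 4 tiles. Among them were the adjacent Efna3 and Efna4 (19) and Efna1 (17). Of 29 semaphorin, plexin and neuropilin genes, 6 did (20.7%, 7.99 to 39.7), led by the neighbours Sema3b and Sema3f (21, both placed by midpoint). Nrp2 (20), a semaphorin co-receptor, followed, and its start interval had 145 reads and a fold of 6.61. Of 19 Slit, Robo and netrin genes, only Ntn1 did (5.26%, 0.133 to 26.0), with 16, a share near that of all genes. Ntn1 was placed by its midpoint and reaches into the next tile, which was not dense. The bodies of Slit3 (20 in 1 tile), Robo2 and Robo1 (17) also filled dense tiles although these genes start elsewhere. Housekeeping genes had 1 of 21 (4.76%; Hsp90ab1, 16), also near that share, and cytosolic ribosomal protein genes 7 of 75 (9.33%), with Rplp2 at 18. Of 360 numbered Zfp genes 15 did (4.17%, near the share of all genes), of 1100 olfactory receptor genes only Olfr827, which shares a tile with Neurod4, and of 352 vomeronasal receptor and 53 keratin genes none.

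**Figure D4:**
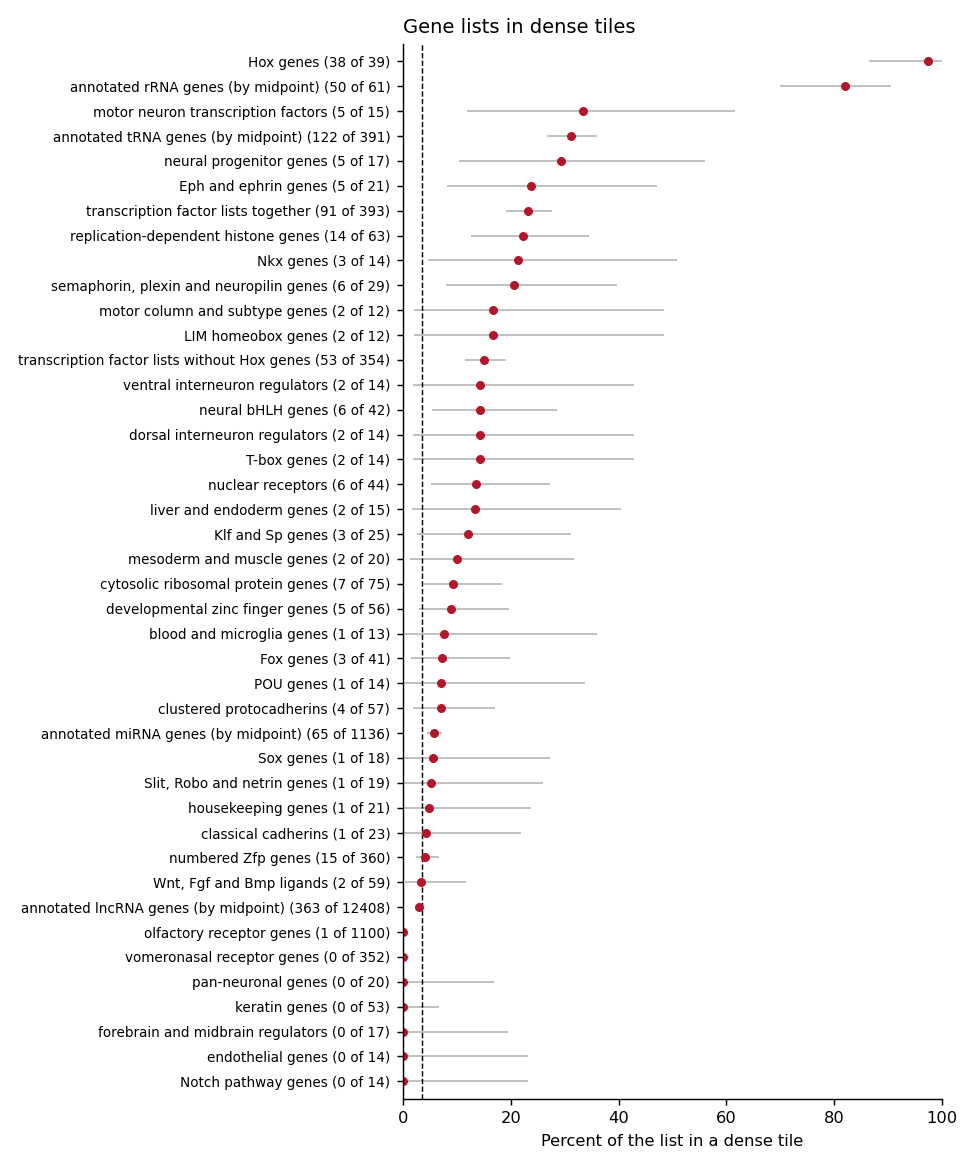
Percent of each list of genes that lies in a dense tile (x axis), with exact 95% binomial intervals that cover counting error only. Lists have 12 or more members, protein-coding genes are placed by their start and RNA genes by their midpoint, and the dashed line marks the 3.45% of all protein-coding genes. Hox genes (38 of 39) and annotated rRNA genes (50 of 61) lie at the upper end.

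Genes transcribed by RNA polymerase III, which makes tRNA and 5S rRNA, were a further large group in dense tiles, seen when the annotation was counted by gene type. Of 391 annotated tRNA genes, 122 lay in a dense tile (31.2%, exact 95% interval 26.6 to 36.1), in 10 tiles, and 8 of these tiles held 120 of them. Of 61 annotated rRNA genes, 50 did (82.0%), of which 48 were the 5S rRNA genes of 2 neighbouring tiles on chromosome 8. For comparison, 2.93% of lncRNA genes and 1.34% of pseudogenes lay in dense tiles.

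In the tRNA tiles most of the genes were under an interval. An interval overlapped 110 of the 122 tRNA genes in dense tiles (90.2%) and 168 of 269 elsewhere (62.5%). Intervals of this kind count toward the rule, so a higher share in dense tiles is in part built in. In the 8 tiles with 9 or more tRNA genes, 84 of 144 intervals lay over one. Intervals over tRNA genes had a median of 69 reads and a fold of 4.04 in dense tiles, and 85 reads and a fold of 5.90 elsewhere. The tile of chromosome 13 at chr13:21200001-21300000 had the highest median fold of all dense tiles, 6.04. It holds 13 tRNA genes, and 13 of its 15 intervals lay over one. These had a median of 64 reads, against 24.5 for the remaining 2. The glutathione peroxidase genes Gpx5 and Gpx6 are the coding genes that start there. At chr1:171000001-171100000, with 20 tRNA genes, the median reads were 109 over a background of 44.7. Copies of a tRNA gene are nearly identical, so the reads of a single gene are uncertain.

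The histone cluster at chr13:23500001-23600000 combined both kinds of gene. It held 24 intervals, 14 starts of replication-dependent histone genes, which are expressed as cells copy their DNA, and 13 tRNA genes. The median was 91.5 reads and a fold of 3.95, and 13 intervals lay at gene ends. The strongest by reads, with 203, lay at H2ac7. Of 63 histone genes on these chromosomes, the 14 in dense tiles (22.2%, beside 3.45% of all genes) all lay here. The neighbouring tile with 22 tRNA genes held 19 intervals. Histone genes also share sequence, and the values of single copies are uncertain.

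The tile chr8:123500001-123600000 carried 36 of the 5S rRNA genes and 32 intervals, 28 of which lay over such a gene. Its median was 33.5 reads over a background of 13.3, with a fold of 2.18, and 25 of 32 intervals had a q-value under 0.05. Over both tiles 34 of 48 intervals lay over a 5S gene. The intervals followed each other closely, with a median spacing of 1743 bp in the chain they form.

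The tile with the most intervals had no annotated gene at all. At chr6:114500001-114600000 there were 41, and all 41 had a q-value under 0.05. Their reads ranged from 32 to 248 with a median of 46, and the local background was 14.2 to 17.9 reads throughout. The intervals were evenly spaced. The distance between neighbouring midpoints had a median of 2408 bp with quartiles of 2350 and 2503 bp, and its coefficient of variation was 0.216. This was the lowest of the 332 dense tiles, whose median was 0.858 and whose second lowest was 0.397.

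This even row went past the tile's edges. Its sequence was not read, and how many of its reads came from copies, in the row or elsewhere in the genome, was not tested. When neighbours no more than 6 kb apart were joined, a gap chosen after the row was seen, 59 intervals formed 1 chain from 114494302 to 114637167 on chromosome 6. It was 143 kb long and crossed no coding gene. Of its 58 spacings, 55 were between 2 and 3 kb. All 59 intervals had a q-value under 0.05, and the background had a median of 15.6 reads, against 5.45 in the tile chr6:114700001-114800000 beyond its end. Only 6 chains on these chromosomes had 20 or more intervals. The others were the 5S rRNA genes (39 intervals), the Hoxa cluster (33), the Sfi1 region (26) and the first intervals of chromosomes 9 (26) and 17 (24). The spacing of the chromosome 6 chain was the most even, with a coefficient of variation of 0.179. The chains of chromosome 9 (0.325) and of the 5S rRNA genes (0.455) followed. Those of chromosome 17 (0.546), Sfi1 (0.581) and Hoxa (0.583) were less even.

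**Figure D5:**
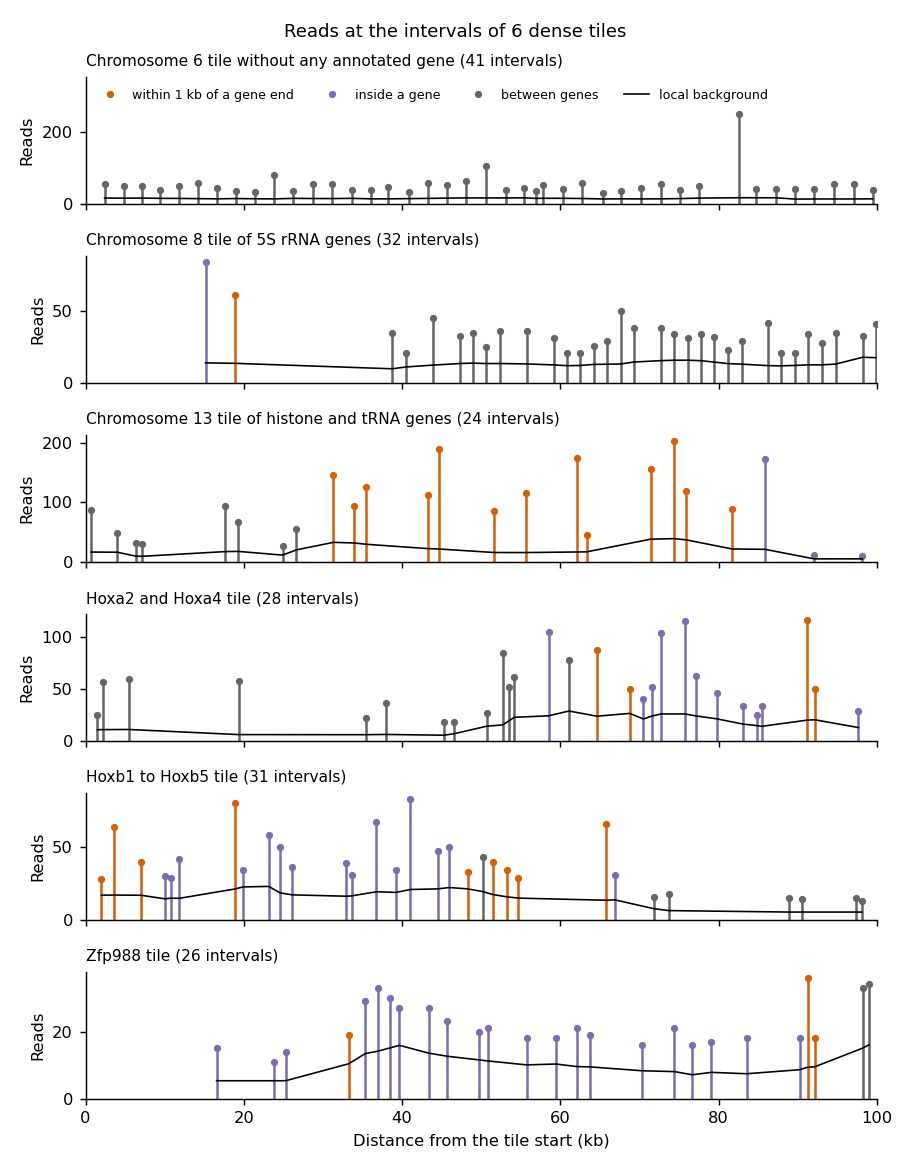
Reads at each interval (stems, y axis) by its midpoint's distance from the tile start (x axis, kb) in 6 dense tiles, coloured by position relative to coding genes. The black line joins the local background of neighbouring intervals. The 41 intervals of the gene-free chromosome 6 tile are evenly spaced, those of the histone tile reach 203 reads at gene ends, and those of the Zfp988 tile stay at 36 reads or fewer.

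Several of the fullest tiles held few genes or copies of similar genes. The tile chr9:3000001-3100000 had 40 intervals, a median of 780 reads and a maximum of 2679, over a median background of 315 reads. Only Mir101c is annotated in it, and the tile that follows held no interval. The tile chr11:3100001-3200000, which overlaps Sfi1, a centrosomal protein gene, had 39 intervals with a median fold of 1.96 and a median of 60 reads. The tile chr17:3000001-3100000 had 31 intervals, no coding gene and a median of 17 reads. At chr8:20500001-20700000, 2 neighbouring tiles had 24 intervals each, with medians of 23.5 and 23 reads. How many reads these stretches received from copies elsewhere in the genome was not tested. A background of 30 reads or more was the median in 4 dense tiles, and in 2.004% of intervals in dense tiles against 0.139% in others.

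Of the 23 tiles without a coding gene, 19 held a noncoding gene or pseudogene and 4 none. Among them, chr8:20000001-20100000 held 23 intervals with a median of 18 reads. In contrast, chr17:83100001-83200000 held 19 intervals, 17 of them at a q-value under 0.05, with a median fold of 4.27 and a strongest interval of 96 reads and a fold of 9.05 that lay 36637 bp from the nearest gene end.

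At the extremes of median fold, the tile of chromosome 13 with tRNA genes was followed by that of Neurod4 (5.88) and by the tile of Klhl9, the interferon gene Ifnz and a row of neighbouring genes without a functional name (5.17). In the Neurod4 tile, 13 of 16 intervals lay between genes, and a distal interval of 114 reads and a fold of 11.9 lay 11654 bp from the nearest gene end, in addition to the one of 208 reads 2134 bp away. In the Klhl9 tile, 13 of 17 intervals lay at gene ends, at a median of 150 reads over the tile. Interferon genes resemble each other, and single values there are uncertain. The lowest median folds were those of the Ugt1a tile (1.82), a cluster of UDP-glucuronosyltransferase genes with similar first exons, the Zfp988 tile (1.94) and the Sfi1 tile (1.96). The Ugt1a tile still contained 1 interval of 701 reads and a fold of 14.1, which lay not at a Ugt1a gene but at the start of Hjurp, a centromeric histone chaperone gene in the same tile.

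Some dense tiles adjoined one another. They formed 283 runs, of which 245 were single tiles and 38 had 2 or more tiles, together holding 87 of the 332. Tiles beside a dense tile that were not dense themselves held a median of 8 intervals (538 tiles), against 3 for all 24284 tiles that were not dense. The longest run was 6 tiles on chromosome 4 (chr4:147000001-147600000) with 119 intervals over Rex2, Zfp978, Zfp991, Zfp988, Zfp982 and Zfp985. Its median was 18 reads, and 59.7% of its intervals had a q-value under 0.05. In the Zfp988 tile 12 of 26 did, with reads from 11 to 36. These genes are similar to each other, and their single values are uncertain.

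Single large genes gave 3 of the other long runs. Gse1, with Gins2 at its edge, gave 4 tiles and 77 intervals, at a median of 35 reads and 85.7% of intervals at a q-value under 0.05. Dach1, a dachshund homologue, gave 4 tiles with 69 intervals, of which 1 lay at a gene end. Robo2, a receptor for Slit proteins, gave 3 tiles with 47 intervals and none at a gene end. Its interval with most reads had 218 and a fold of 11.5. The Hoxc cluster with Smug1 and Cbx5 gave 3 tiles and 63 intervals, and a gene-rich stretch from Nmrk2 to Celf5 on chromosome 10 gave 3 tiles and 47 intervals, of which 22 lay at gene ends.

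Families of miRNAs known from motor neurons and from the Hox clusters also lay in dense tiles, and were chosen after their values were seen. Of 919 miRNA hairpins, 58 did (6.31%). The mature forms of 4 families in which every copy named below did are shown as RefSeq gives them (GRCm38.p6), with the seed, bases 2 to 8, in capitals. The seed is shared within each family.
miR-9-5p: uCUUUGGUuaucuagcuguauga
miR-218-5p: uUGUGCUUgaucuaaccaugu
miR-10a-5p: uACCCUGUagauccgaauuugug
miR-10b-5p: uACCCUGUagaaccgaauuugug
miR-196a-5p: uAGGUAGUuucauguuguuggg
miR-196b-5p: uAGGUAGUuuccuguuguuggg

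The miR-218 genes, whose product is abundant in motor neurons, lie inside Slit2 (Mir218-1, 16 intervals in its tile) and Slit3 (Mir218-2, 15). Neither was at an interval. The nearest lay 1475 bp from Mir218-1, with 12 reads and a fold of 2.04, and 2568 bp from Mir218-2, with 30 reads and a fold of 2.59. The 3 miR-9 genes, whose product acts in neural progenitors, had 15 (Mir9-1), 16 (Mir9-2) and 20 (Mir9-3) intervals. An interval overlapped Mir9-3, with 93 reads and a fold of 6.16, and Mir9-1, with 18 reads and 2.82. Mir10a and Mir10b lie in the Hoxb and Hoxd clusters (31 and 20 intervals), and Mir196a-1, Mir196a-2 and Mir196b in the Hoxb, Hoxc and Hoxa clusters (19, 23 and 22), so their place in dense tiles is that of their cluster. Not every miRNA family was like this: Mir181a-1 and Mir181b-1 lay in a dense tile (16), whereas Mir181a-2 and Mir181b-2 (6) and Mir181d (9) did not.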

How the data were processed

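ATAC-seq was performed on 2 replicates of 1 group, and 1 pooled, filtered peak list was analysed. Per the submitters' processing notes, the build was mm10 and the tools included MACS2 2.2.7.1, BWA 0.7.1.7, Trim Galore, SAMtools 1.7.2 and cutadapt 0.6.2. Settings, the filter, the handling of duplicates and any shift for the Tn5 cut are not given in sources used here. The deposited list gives for each summit a fold (ratio) over the local background, −log10 p and q values, a score equal to 10 times −log10 p, which was not used, and a summit offset, all made by the authors. Replicates were pooled by the authors, so total depth per library is unknown.

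Reads and background were solved from the authors' deposited fold and p through the Poisson tail, and 99.96% of read values came out within 0.01 of a whole number. The smallest was 11 reads, so a site without an interval may still be open below that limit. The genome-wide background was 5.37 reads. Of 138387 entries, 104069 unique intervals were formed, each with the values of its strongest summit.

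Genes, promoters and miRNAs came from RefSeq tables of GRCm38.p6, the assembly behind mm10. A gene start is its outermost end on its strand (16456 genes) or its midpoint where no strand was given (4205 genes). Tiles reach to the last interval or gene of a chromosome. Intervals of shares are exact binomial and those of medians use order statistics, both at 95%. They cover counting error only and treat neighbouring intervals and genes as independent. No test was run. Named tiles were the 12 with most intervals, the 5 longest runs with ties, 5 without a coding gene and the 3 highest and 3 lowest by median fold. From the gene lists, Hox and motor neuron factors and up to 3 others per list were named, a few of which are not reported here, and names outside this rule were chosen after their values were seen. The members and the lists were chosen with earlier results of these data known. Recovery, tile counts and intervals of medians were tested on simulated data. Python 3.11.15, numpy 2.4.6, pandas 2.3.3 and scipy 1.17.1 were used. Alternatives are described in the closing section.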

Additional observations from a re-analysis of the deposited data

Results flagged for a closer look

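Some windows outside chromosomes 1 to 19 also held 15 or more intervals and were not part of the 332 tiles. The unplaced contig JH584304 held 51 unique intervals in its first 100 kb, at a median background of 216 reads. The contig GL456393 held 29, at 5.68 reads. The contig GL456211, assigned to chromosome 1 without a position, held 15 in the tile from 100001, at 5.65 reads. The X chromosome had 1 such tile, from 12100001, with 15 intervals at a background of 8.24 reads. The Y chromosome had 1 as well, from 90700001, with 15 intervals at 38.4 reads. The part of reads from similar sequences elsewhere was not tested.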

How the results depend on the processing

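The main result was 332 tiles with 15 or more intervals, a median fold of 2.83 in them, 13.4% of their intervals at gene ends, 3.45% of genes, a median CpG ratio of 0.675 and 38 runs of 2 or more tiles. Moving the tiles by 50 kb gave a fold of 2.85 and left the other results within their spread or 1.5 times. Assignment by summit and leaving out intervals with a background of 30 reads or more (319 tiles) did so for every result.

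Tiles of 50 kb with 8 or more intervals gave 1060 tiles, a fold of 2.87, 5.70% of genes and 132 runs. Tiles of 200 kb with 30 or more gave 55 tiles, 2.71, 1.20% and 5 runs. A threshold of 10 gave 2021 tiles, a fold of 3.04, 15.1% at gene ends, 18.6% of genes and 401 runs, and a threshold of 20 gave 41 tiles, 2.50, 11.5%, 0.484% and 4 runs. Counting summits gave 1445 tiles, 2.93, 21.4%, 15.7% and 267 runs, and merging intervals less than 1 kb apart gave 91 tiles, 2.93, 12.5%, 0.953% and 11 runs. Only intervals with a q-value under 0.05 gave 99 tiles, 3.22, 1.21% of genes and 11 runs, and only the upper 50% gave 14 tiles, 3.59, 19.7%, 0.281% and 2 runs. Leaving out intervals at gene ends gave 178 tiles, 2.67, 0.687% of genes, a CpG ratio of 0.564 (0.424 to 0.685) and 21 runs. That CpG ratio was below the 0.593 of promoters elsewhere in the main result, and its interval included 0.593. The higher CpG content of dense tiles was thus not seen in this setting. Counting genes that overlap a dense tile anywhere gave 4.32% of genes. Shares fall with the number of tiles by construction.

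The share of transcription factors stayed above that of all genes under the 4 settings for which it was computed. It was 11.2% against 1.21% with a q-value under 0.05 and 1.27% against 0.281% in the upper 50%. Without gene-end intervals it was 7.89% against 0.687%, and without high backgrounds 22.1% against 3.29%. When the Hox genes were left out, the shares in the same order were 3.11% (11 genes), 0.565% (2 genes), 4.52% (16 genes) and 13.8% (49 genes). The upper 50% left 5 transcription factors, 3 of them Hox genes, so that setting rests on very few. No paired analysis was possible because both replicates were pooled into 1 list of 1 group, and for the same reason no replicate could be left out. The depth limits every count: a tile below the threshold may hold further sites under the caller's limit.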
